A study of Mus musculus with 4 samples.

Results

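Fatty acid uptake and oxidation genes were examined in mouse primary cardiac fibroblasts with and without a hairpin against Nr4a3. The set was a named list of 36 genes, chosen by name for their place in the pathway. Of these, 35 were among the 13192 genes of the count table and all 35 passed the filter on low counts, so that they were tested with 13160 genes in all. Fabp4, the fatty acid binding protein of adipocytes and capillary endothelium, was not listed.

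RNA-seq libraries came from neonatal wild-type heart tissue cultured as cardiac fibroblasts, with 2 libraries from cells given a hairpin directed at Nr4a3 (shNr4a3) and 2 from cells given a non-targeting hairpin (shNT). All were collected at day 7 of treatment. P3 also stands in every title without explanation, and no reprogramming factor is named. Hairpin sequence, number of hairpins and vector were unstated in the labels, which also do not say whether replicates are separate cultures, so that a p-value measures only the spread between these libraries, which may be technical. The stated purpose was to learn how lowering Nr4a3, an orphan nuclear receptor, bears on the conversion of fibroblasts into cardiomyocyte-like cells.

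Fatty acids enter a cell through membrane proteins such as CD36, are carried in the cytosol by fatty acid binding proteins, and are activated to acyl-CoA by long-chain acyl-CoA synthetases. Acyl groups pass into mitochondria on carnitine, where a dehydrogenase, a hydratase, a second dehydrogenase and a thiolase shorten them step by step; peroxisomes run a related cycle on very long and branched chains. The heart takes most of its ATP from this route, whereas cultured fibroblasts lean more on glucose, and the PPAR nuclear receptors switch on many of its genes.

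Totals over the listed genes were 34246969 and 34813598 counts in the shNr4a3 libraries and 34068241 and 35111013 in the shNT libraries. Nr4a3 itself had 4 and 8 counts in shNr4a3, against 60 and 29 counts in shNT (log2 fold change -2.98 ± 0.67, SE; adjusted p = 3.22e-04). All 13 fibroblast markers of a fixed list were tested, and 5 were higher and 7 lower in shNr4a3. Col1a1 had 66705 and 69186 counts in shNr4a3 and 139553 and 140224 counts in shNT, while Col3a1 had 49323 and 50435 counts in shNr4a3 and 40735 and 40056 counts in shNT. Markers of other heart cells were present too: 12 of 14 tested endothelial markers and 12 of 13 epicardial and mesothelial markers were lower in shNr4a3. The mesothelial list summed to 217 and 215 normalised CPM in shNr4a3, against 824 and 793 in shNT (normalised CPM being counts scaled to a common library size), and of 6 tested cardiomyocyte markers 1 was lower. The part of these cells in the members' values was not tested. In bulk RNA, fewer cells of a type and less RNA per cell cannot be told apart.

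Members moved in both directions. Of the 35 members 21 differed at an adjusted p under 0.05, which is 60.0%, against 55.5% of all genes tested. Of the 21, 12 were higher (27.6% of all genes were) and 9 lower (27.9% of all genes were) in shNr4a3. The members' median change was -0.02 on the log2 scale, against 0.0044 for all genes. Changes were small for most: 27 of 35 members lay within 0.5 on the log2 scale, a band that held 64.5% of all genes. Tested for a change beyond 0.5 on the log2 scale, 4 members passed, which were Cd36, Fabp5, Acox3 and Ucp2; 16% of all genes did. In normalised CPM the groups did not overlap for 27 members, 15 with shNr4a3 above (38.9% of all genes were) and 12 with shNr4a3 below (38.3% of all genes were); 77.2% of all genes showed a separation in either direction. Scaling by library totals alone shifted the centre of all genes upward by 0.113 (log2), which made the members' split 15 higher and 7 lower. The authors' deposited table calls 2 of the 35 members, Fabp5 as up (log2 fold change 1.98) and Ucp2 as down (-1.26), against 7.47% of all genes listed there. The p-values of the authors' deposited table cannot be tests against no change, since Cpt1a has p = 0.838 there at a log2 fold change of -0.43 with an SE of 0.0717, so its calls and those of edgeR answer different questions.

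**Figure D1:**
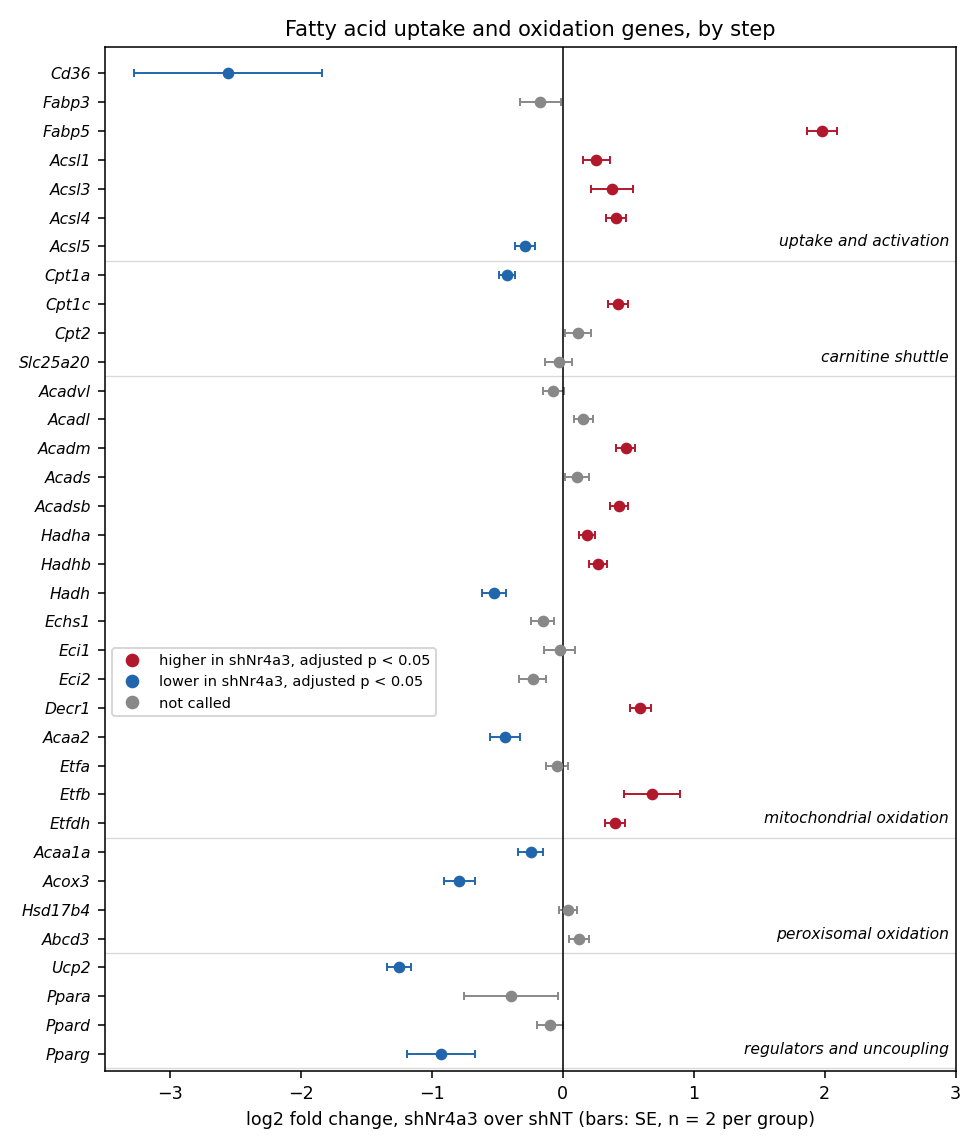
Log2 fold change of each of the 35 listed members, shNr4a3 over shNT, grouped by step, with SE bars (n = 2 per group); red points were higher, blue points lower and grey points not called at an adjusted p under 0.05. Most points lie within 0.5 of 0, Fabp5 (1.98) stands alone on the right, and Cd36 (-2.56), Ucp2 (-1.25), Pparg (-0.93) and Acox3 (-0.79) lie farthest to the left.

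Promoter stretches of 5 members are shown because these genes moved in contrasting ways: Acadm, Acsl4 and Cpt1c were higher, and Cpt1a and Ucp2 lower, in shNr4a3. Each is the part of the 250 bases before the RefSeq start (GRCm38.p6) that holds no annotated exon, on the gene's own strand. Capitals mark AGGTCA or its reverse complement, the hexamer bound by many nuclear receptors; no other letters were capitalised.
Acadm, chr3:153944644-153944893, minus strand: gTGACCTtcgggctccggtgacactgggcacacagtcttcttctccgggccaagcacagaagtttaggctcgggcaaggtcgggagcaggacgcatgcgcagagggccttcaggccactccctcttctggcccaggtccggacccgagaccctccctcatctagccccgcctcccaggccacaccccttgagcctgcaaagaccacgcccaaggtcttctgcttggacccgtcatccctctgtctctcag
Acsl4, chrX:142390536-142390785, minus strand: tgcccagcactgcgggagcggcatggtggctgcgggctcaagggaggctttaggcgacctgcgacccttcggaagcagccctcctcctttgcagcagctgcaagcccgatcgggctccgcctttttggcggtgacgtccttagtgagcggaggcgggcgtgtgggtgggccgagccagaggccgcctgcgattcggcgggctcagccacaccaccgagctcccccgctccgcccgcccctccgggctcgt
Cpt1c, chr7:44974852-44975101, minus strand: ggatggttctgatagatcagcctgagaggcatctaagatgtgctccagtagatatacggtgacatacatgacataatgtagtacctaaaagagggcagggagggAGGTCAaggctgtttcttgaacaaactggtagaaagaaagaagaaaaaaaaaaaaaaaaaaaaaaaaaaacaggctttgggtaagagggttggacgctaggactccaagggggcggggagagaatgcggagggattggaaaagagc
Cpt1a, chr19:3323051-3323284, plus strand: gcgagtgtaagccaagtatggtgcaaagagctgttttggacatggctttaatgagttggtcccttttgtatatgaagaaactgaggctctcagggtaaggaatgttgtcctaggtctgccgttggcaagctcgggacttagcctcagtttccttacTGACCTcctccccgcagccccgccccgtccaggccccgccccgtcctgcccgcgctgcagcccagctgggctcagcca
Ucp2, chr7:100493108-100493336, plus strand: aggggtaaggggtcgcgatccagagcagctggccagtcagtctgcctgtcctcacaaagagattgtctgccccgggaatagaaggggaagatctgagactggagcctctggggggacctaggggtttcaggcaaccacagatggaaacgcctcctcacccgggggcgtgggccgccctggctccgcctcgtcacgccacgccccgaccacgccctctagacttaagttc
Promoter windows were at hand for 31 of the 36 members; Acaa2, Decr1, Fabp4, Fabp5 and Hsd17b4 had none. On either strand, AGGTCA stood in the 250 bases of 7 of the 31 members (22.6%), some of which have several windows. Counted by window, it was in 8 of the members' 35 windows, against 4607 of all 32851 windows (14.0%). It lay 249 to 244 bases before the start in Acadm, 146 to 141 in Cpt1c and 94 to 89 in Cpt1a, so that members with it were found among those that rose and those that fell; the stretches of Acsl4 and Ucp2 have none. The other 4 were Cd36, Pparg, Echs1 and Acadvl. The NR4A monomer site AAAGGTCA, which contains that hexamer, was in none of the members' windows and in 1.34% of all windows. The PPAR and RXR site known as DR1, the same hexamer repeated in the same orientation with a single base between, was in none of them and in 0.0335% of all windows. These windows are short, and such matches or their absence say nothing about binding.

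Uptake and activation held the widest changes of any step, with Fabp5 up and Cd36 down. Of 7 tested genes 4 were higher and 2 lower in shNr4a3, which is 85.7% called, against 55.5% of all genes. Fabp5, the epidermal type fatty acid binding protein (GRCm38 chromosome 3, 10012548 to 10016607), had 1343 and 1387 counts in shNr4a3 libraries, against 282 and 359 counts in shNT libraries. Both shNr4a3 libraries stood far above both shNT libraries: it averaged 38.0 ± 0.325 normalised CPM in shNr4a3 and 9.62 ± 1.37 normalised CPM in shNT (SD, n = 2 each), a 3.95-fold higher level (log2 fold change 1.98 ± 0.12, SE; adjusted p = 1.72e-15). Of the 100-base stretches of its transcript 9.01% also occur in 2 other annotated genes, so that a small part of its reads could be shared with copies. Fabp3, the heart type binding protein, had 10.3 and 9.02 normalised CPM in shNr4a3 and 11.8 and 9.91 in shNT, overlapping ranges with a log2 fold change of -0.17 ± 0.16 (adjusted p = 0.372); 21.7% of its 100-base stretches also occur in Fabp3-ps1. Per length, Fabp5 reached 38.3 and 38.7 normalised CPM per kb in shNr4a3, against 12.5 and 10.95 for Fabp3 in the same libraries; in shNT the values were 8.76 and 10.7 for Fabp5 and 14.3 and 12.0 for Fabp3.

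Cd36, the fatty acid translocase (chromosome 5, 17781690 to 17888801), was scarce in every library. It had 4 and 10 counts in shNr4a3, against 14 and 64 counts in shNT. The groups did not touch, but shNT replicate 2 stood well above the other 3 libraries. The log2 fold change of -2.56 ± 0.72 (adjusted p = 0.0033) became -1.12 without shNT replicate 2 and no longer passed (adjusted p = 0.397). Cd36 is also expressed by endothelial cells, macrophages and adipocytes. The summed level of the 14 tested endothelial markers was 527 and 531 normalised CPM in shNr4a3, against 988 and 883 in shNT; Cldn5, Sox18 and Gpihbp1 were unlisted. Of 16 macrophage and leukocyte markers 8 were listed. The 7 tested summed to 101 and 99.9 normalised CPM in shNr4a3 and to 62.1 and 63.3 in shNT. Of these markers 1 was higher and 4 lower, where 27.6% of all genes were higher and 27.9% lower. Of 12 adipocyte markers 11 were unlisted, Adipoq and Plin1 among them. The part of these cells in the Cd36 values was not tested.

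The 4 long-chain acyl-CoA synthetases divided 3 against 1. Acsl4, which favours polyunsaturated chains such as arachidonate, had 74.4 and 80.4 normalised CPM in shNr4a3 and 56.1 and 60.8 in shNT (log2 fold change 0.40 ± 0.08, SE; adjusted p = 4.35e-05). Acsl1 (0.26 ± 0.10, adjusted p = 0.0316) and Acsl3 (0.38 ± 0.16, adjusted p = 0.0431) also rose. Both of these calls were fragile: Acsl1 did not pass in DESeq2 (adjusted p = 0.0780) or without shNT replicate 2 or either shNr4a3 library, and Acsl3 did not pass in DESeq2 (adjusted p = 0.102), with a stricter filter, or without shNT replicate 1 or either shNr4a3 library. Acsl5, a mitochondrial and reticulum form, had 59.7 and 58.2 normalised CPM in shNr4a3, against 68.9 and 74.8 in shNT (log2 fold change -0.29 ± 0.08, adjusted p = 0.00196). Its call was lost with library totals alone (-0.17, adjusted p = 0.0561) and without shNr4a3 replicate 2 (-0.27, adjusted p = 0.0543). Per length, Acsl5 made up 36.2% and 34.6% of the summed level of the 4 synthetases in shNr4a3, against 45.4% and 46.7% in shNT. Acsl4 made up 36.3% and 38.4% in shNr4a3, against 29.7% and 30.5% in shNT, so that Acsl5 led in shNT whereas the levels of both lay close together in shNr4a3.

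**Figure D2:**
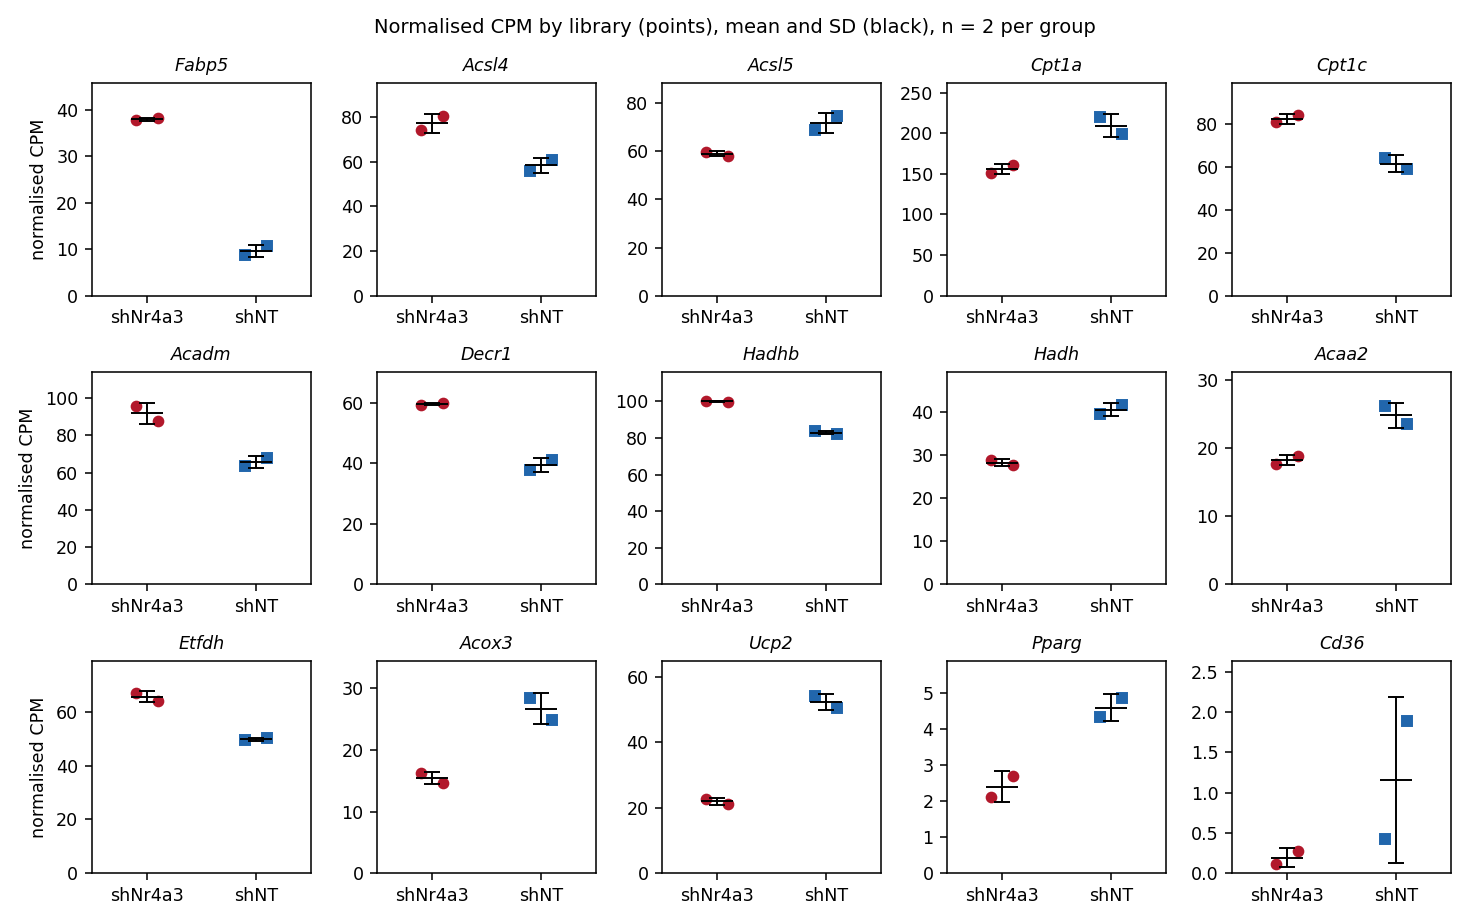
Normalised CPM of 15 members in each library, with the mean and SD of each group in black (n = 2 per group, axes from 0). Red circles (shNr4a3) lie above blue squares (shNT) for Fabp5, Acsl4, Cpt1c, Acadm, Decr1, Hadhb and Etfdh and below them for the other 8; the shNT points of Cd36 (0.429 and 1.89) are far apart.

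In the carnitine shuttle the 2 listed CPT1 genes moved in opposite directions, and the inner steps did not pass. Of these 4 genes 50% were called, against 55.5% of all genes. Cpt1a (chromosome 19, 3322334 to 3385733) encodes the outer membrane transferase that sets the rate of mitochondrial fatty acid entry. It had 5395 and 5829 counts in shNr4a3, against 7171 and 6768 counts in shNT. It averaged 156 ± 6.32 normalised CPM in shNr4a3 and 210 ± 14.4 in shNT (SD, n = 2 each), a fall of 0.42 on the log2 scale (SE 0.06; adjusted p = 8.85e-07). Cpt1c (chromosome 7, 44959372 to 44974851), a form known from brain that resides in the endoplasmic reticulum and has little transferase activity, had 2872 and 3051 counts in shNr4a3, against 2094 and 1996 counts in shNT (log2 fold change 0.42 ± 0.07, adjusted p = 1.65e-05). Both groups were apart for both genes. Per length, Cpt1a made up 54.9% and 55.3% of the pair in shNr4a3, against 68.9% and 68.7% in shNT. Cpt1b, the muscle form, was not listed. Cpt2, the inner membrane transferase, lay at 0.11 ± 0.10 on the log2 scale (adjusted p = 0.345), and Slc25a20, the carnitine-acylcarnitine carrier, at -0.03 ± 0.11 (adjusted p = 0.816); for each of them the libraries of the groups overlapped.

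**Figure D3:**
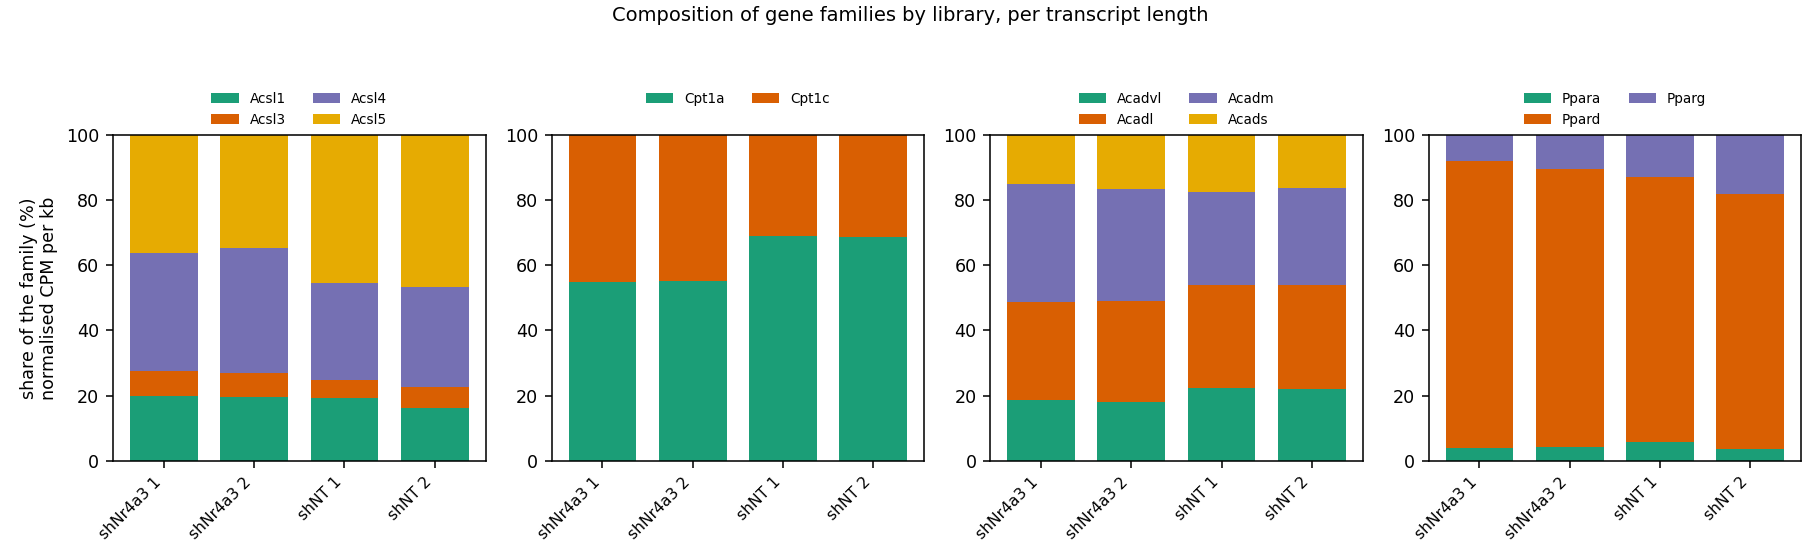
Share of each gene in the summed level of its family, in percent of normalised CPM per kb of the longest coding transcript, in each library (shNr4a3 left, shNT right). Acsl5 and Cpt1a take smaller shares in both shNr4a3 libraries than in both shNT libraries, and Ppard takes the most of the PPAR family in every library.

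Of 16 tested mitochondrial oxidation genes 7 were higher and 2 lower in shNr4a3, with a median log2 fold change of 0.13. The 56.3% called are close to the 55.5% of all genes. Acadm, Acadsb, Hadha, Hadhb, Decr1, Etfb and Etfdh rose, and Hadh and Acaa2 fell. Among the acyl-CoA dehydrogenases that open each turn, ordered from long to short chains, log2 fold changes were -0.07 ± 0.08 for Acadvl (adjusted p = 0.463), 0.16 ± 0.07 for Acadl (adjusted p = 0.0698), 0.48 ± 0.07 for Acadm (adjusted p = 1.91e-06) and 0.11 ± 0.09 for Acads (adjusted p = 0.327). Acadm, the medium-chain enzyme (chromosome 3, 153922357 to 153944632), had 95.8 and 87.8 normalised CPM in shNr4a3, against 63.6 and 68.0 in shNT, with no overlap. Acadl, the long-chain enzyme, passed at 0.18 without shNT replicate 2 (adjusted p = 0.0220) and at 0.27 with library totals alone, as did Acads at 0.22 under that scaling. Exons of Acadvl share 42.9% of their bases with Dvl2 on the opposite strand, and the strand setting of the counting is unstated in the sources at hand. Acadsb, which acts on short branched chains from isoleucine, had 111 and 108 normalised CPM in shNr4a3 and 79.1 and 83.4 in shNT (log2 fold change 0.43 ± 0.07, adjusted p = 3.10e-06).

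The genes of both subunits of the trifunctional protein, which runs the later steps on long chains, were slightly higher in shNr4a3. Hadha and Hadhb lie head to head on chromosome 5 with 85 bases between their annotated ends. Hadhb had 99.9 and 99.8 normalised CPM in shNr4a3, against 83.5 and 82.3 in shNT (log2 fold change 0.27 ± 0.07, adjusted p = 0.00125). Hadha had 198 and 185 normalised CPM in shNr4a3, against 171 and 166 in shNT (0.18 ± 0.06, adjusted p = 0.0107), a call lost when either shNr4a3 library was left out (0.13 without the first, adjusted p = 0.304; 0.23 without the other, adjusted p = 0.0586). The ratio of Hadha to Hadhb counts was 1.98 and 1.85 in shNr4a3 and 2.05 and 2.02 in shNT. Of the 100-base stretches of Hadhb 52.8% occur in other annotated genes, Gm13910 foremost, so its count is uncertain.

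Of the separate enzymes of the later steps, Hadh and Acaa2 fell and Decr1 rose. Hadh, the hydroxyacyl-CoA dehydrogenase for medium and short chains (chromosome 3, 131233419 to 131272101), had 1027 and 1007 counts in shNr4a3, against 1290 and 1417 counts in shNT; it averaged 28.3 ± 0.797 normalised CPM in shNr4a3 and 40.7 ± 1.56 in shNT (SD, n = 2 each) and fell by 0.52 on the log2 scale (SE 0.09; adjusted p = 1.47e-05). Acaa2, the mitochondrial ketoacyl-CoA thiolase (chromosome 18, 74779197 to 74806208), had 17.7 and 18.8 normalised CPM in shNr4a3, against 26.1 and 23.5 in shNT, and fell by 0.44 (SE 0.11; adjusted p = 0.00124). Both shNr4a3 libraries were below both shNT libraries in each case. Echs1, the short-chain enoyl-CoA hydratase, did not pass (-0.15 ± 0.09, adjusted p = 0.148). The enoyl-CoA isomerases Eci1 (-0.02 ± 0.12, adjusted p = 0.880) and Eci2 (-0.23 ± 0.10, adjusted p = 0.0599) did not pass either, though Echs1 passed at -0.20 without shNT replicate 2 and Eci2 at -0.26 without shNT replicate 1 and at -0.25 with a stricter filter. Decr1, the dienoyl-CoA reductase needed for polyunsaturated chains (chromosome 4, 15917240 to 15945507), rose: it had 2110 and 2170 counts in shNr4a3, against 1233 and 1398 counts in shNT. Its averages were 59.6 ± 0.333 normalised CPM in shNr4a3 and 39.5 ± 2.40 in shNT (SD, n = 2 each; log2 fold change 0.59 ± 0.08, adjusted p = 3.43e-07).

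Of the proteins that take electrons from these dehydrogenases to ubiquinone, Etfdh, the membrane dehydrogenase, had 67.1 and 64.2 normalised CPM in shNr4a3, against 49.4 and 50.2 in shNT (log2 fold change 0.40 ± 0.08, adjusted p = 6.27e-05). Etfa, the alpha subunit of the electron transfer flavoprotein, had overlapping values (-0.05 ± 0.08, adjusted p = 0.663). Etfb, its beta subunit, had 226 and 205 counts in shNr4a3, against 115 and 134 counts in shNT (0.68 ± 0.22, adjusted p = 0.00801), a call lost when shNr4a3 replicate 1 was left out (0.60, adjusted p = 0.0925). The subunits form a pair in the protein, but Etfa counts were 9.77 and 9.97 times those of Etfb in shNr4a3 and 16.1 and 16.5 times in shNT. Of the 100-base stretches of Etfb 65.2% occur in the overlapping gene Gm45233 on the same strand, which the table does not list, so the level of Etfb and its change are uncertain.

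Among peroxisomal genes 2 of 4 fell and none rose, which is 50% called, against 55.5% of all genes. Their median change was -0.10 on the log2 scale, and it turned to 0.01 with library totals alone. Acox3, an acyl-CoA oxidase for branched chains (chromosome 5, 35583040 to 35615352), had 575 and 533 counts in shNr4a3, against 928 and 845 counts in shNT. It averaged 15.4 ± 1.05 normalised CPM in shNr4a3 and 26.7 ± 2.51 in shNT (SD, n = 2 each), a fall of 0.79 on the log2 scale (SE 0.12; adjusted p = 8.15e-07). Acaa1a, the peroxisomal thiolase, had 32.3 and 36.7 normalised CPM in shNr4a3, against 37.5 and 44.4 in shNT (log2 fold change -0.25 ± 0.10, adjusted p = 0.0308). That call was lost in DESeq2 (adjusted p = 0.0720), with library totals alone (-0.13) and without shNT replicate 2 (-0.12) or shNr4a3 replicate 1 (-0.16), and 21.6% of the 100-base stretches of Acaa1a also occur in Acaa1b. Hsd17b4, the bifunctional enzyme of the peroxisomal cycle, lay at 0.04 ± 0.07 (adjusted p = 0.634). Abcd3, an acyl-CoA transporter of the peroxisomal membrane, had 0.12 ± 0.08 (adjusted p = 0.182) and passed with library totals alone (0.24) or when shNT replicate 2 was left out (0.20, adjusted p = 0.0142).

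Of Ucp2 and the 3 PPAR genes none was called higher, and Ucp2 and Pparg fell, which is 50% called, against 55.5% of all genes. Ucp2, an inner membrane carrier of the uncoupling protein family (chromosome 7, 100493337 to 100502020), had 805 and 771 counts in shNr4a3, against 1762 and 1713 counts in shNT. It averaged 22.0 ± 0.982 normalised CPM in shNr4a3 and 52.3 ± 2.50 in shNT (SD, n = 2 each), a 2.38-fold lower level (log2 fold change -1.25 ± 0.09, SE; adjusted p = 4.46e-13). Pparg (chromosome 6, 115360951 to 115490399), the PPAR of adipocytes that is also found in endothelium and macrophages, had 75 and 98 counts in shNr4a3, against 141 and 165 counts in shNT (-0.93 ± 0.26, adjusted p = 0.00287). The call was just missed without shNr4a3 replicate 1 (-0.76, adjusted p = 0.0505). Ppard, the widely expressed member, had 35.5 and 34.3 normalised CPM in shNr4a3 and 41.9 and 32.8 in shNT (-0.10 ± 0.10, adjusted p = 0.436), and its sign turned on the shNT libraries: over the alternatives its log2 fold change ran between -0.26 without shNT replicate 2 (adjusted p = 0.0117) and 0.094 without shNT replicate 1. Ppara, the PPAR of liver and heart muscle, had 60 and 66 counts in shNr4a3, against 98 and 55 counts in shNT (-0.40 ± 0.36, adjusted p = 0.3599). Per length, Ppard made up 87.9% and 85.3% of the summed PPAR level in shNr4a3 and 81.4% and 78.3% in shNT. The endothelial sum given for Cd36 was lower in shNr4a3, as Pparg was. The macrophage sum was higher, but 4 of the 7 tested macrophage and leukocyte markers were lower and 1 higher. The part of endothelial cells and macrophages in the Pparg values was not tested.

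Levels of different genes can be set side by side only per length, and the deposited FPKM could not serve for that. The lengths those FPKM values imply differed from the longest coding transcript in GENCODE M21 by more than 2-fold for 19 of 35 members and lay within 10% of it for 2. For Fabp5 the implied length was 23395 bases against a gene of 4060 bases from end to end, and for Fabp3 it was 15637 against 6869. Normalised CPM per kb of the longest coding transcript was used instead. By that measure Cpt1a had the highest mean of the members in shNT, at 36.2 ± 1.46 in shNr4a3 and 48.6 ± 3.34 in shNT, though its shNT libraries overlapped those of Etfa (42.5 ± 2.93 in shNr4a3 and 43.9 ± 4.32 in shNT), and Hadhb had the highest mean in shNr4a3, at 48.8 ± 0.0505 in shNr4a3 and 40.5 ± 0.438 in shNT (SD, n = 2 each; its shared stretches apply here too). Hadha (47.7 ± 2.27 in shNr4a3) and Acadm (44.8 ± 2.75 in shNr4a3) came next there, and the libraries of Hadhb, Hadha and Acadm overlapped from each gene to its neighbour in that order. Fabp5 was the 28th of 35 members in shNT by this level. The scarcest 3 were Pparg (1.13 ± 0.197 in shNr4a3 and 2.16 ± 0.180 in shNT), Ppara (0.514 ± 0.0273 in shNr4a3 and 0.678 ± 0.287 in shNT) and Cd36 (0.0571 ± 0.0339 in shNr4a3 and 0.341 ± 0.303 in shNT). The median member had 16.7 normalised CPM per kb over the 4 libraries, against 8.37 for 12462 genes with a coding length.

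**Figure D4:**
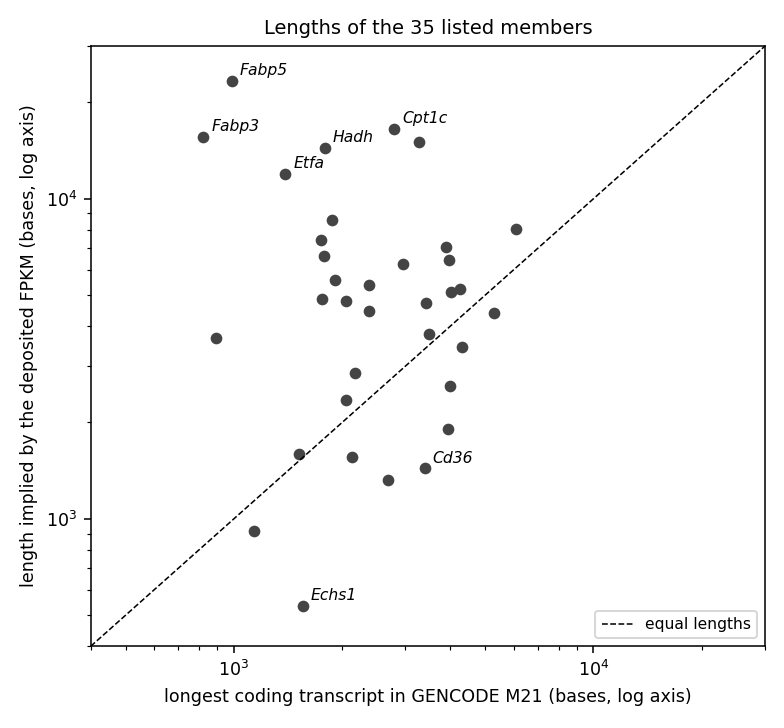
Length implied by the deposited FPKM against the longest coding transcript in GENCODE M21 for the 35 listed members, in bases on log axes; the dashed line marks equal lengths. Points scatter without following the line, with Fabp5 (23395 implied) far above it and Echs1 (536 implied) far below it.

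The rest of the pathway was read from lists of 176 further genes, of which 142 were tested; 47 of them were higher and 46 lower in shNr4a3, with a median log2 fold change of 0.07. That is 65.5% called, against 55.5% of all genes, of which 27.6% were higher and 27.9% lower at a median of 0.0044. Of 13 transport and activation genes outside the members 2 were higher and 6 lower (61.5% called). Slc27a4, a fatty acid transport protein, had 906 and 893 counts in shNr4a3, against 2252 and 2141 counts in shNT (-1.40 ± 0.09). Cav1, caveolin, had 1882 and 1827 counts in shNr4a3, against 3499 and 3687 counts in shNT (-1.06 ± 0.07). It is abundant in endothelial cells, among other cell types, and 12 of 14 tested endothelial markers were lower. The part of endothelial cells in the Cav1 values was not tested. Of 6 carnitine genes 66.7% were called: 1 rose, Crot, the peroxisomal octanoyltransferase (0.34 ± 0.08), and 3 fell, among them Crat, carnitine acetyltransferase (-0.61 ± 0.08).

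Of 32 peroxisome genes outside the members 11 were higher and 4 lower, which is 46.9% called, against 55.5% of all genes. Pex19, an import factor for membrane proteins, rose by 0.59 (SE 0.06), Pex11a, a division factor, by 0.98 (SE 0.17) and Cat, catalase, by 0.24 (SE 0.07); the call of Cat was lost without shNr4a3 replicate 2 (adjusted p = 0.0719). Pex5, the matrix import receptor, had 1279 and 1279 counts in shNr4a3, against 2249 and 2083 counts in shNT, and fell by 0.87 (SE 0.08). Of 22 other mitochondrial acyl-CoA enzymes 72.7% were called: 6 rose, including Acat1, the acetoacetyl-CoA thiolase (0.56 ± 0.08), and Pccb, a propionyl-CoA carboxylase subunit (0.56 ± 0.09), and 10 fell, including Acad11 (-0.65 ± 0.11). Of 17 coactivators and partner receptors 9 rose and 2 fell (64.7% called). Ncoa1, a nuclear receptor coactivator (0.66 ± 0.09), Prkaa2, an AMPK catalytic subunit (0.71 ± 0.10), Nrip1, a corepressor (0.62 ± 0.09), and Sirt1, a deacetylase (0.62 ± 0.10), were higher, and Pprc1, a coactivator of the PGC family, was lower (-0.46 ± 0.08). Ppargc1a was not listed.

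Known PPAR targets outside oxidation split 3 higher and 3 lower of 8 (75% called, against 55.5% of all genes). Their median log2 fold change was -0.86, against 0.0044 for all genes. Lpl and Plin2 are also counted in the lipid droplet list below. The 3 that fell were Angptl4, Vnn1 (-1.27 ± 0.18) and Acot1 (-2.18 ± 0.73). Acot1 was scarce, with 4 and 8 counts in shNr4a3 against 26 and 25 counts in shNT. Its call was lost without shNT replicate 1 (-2.12) and without shNr4a3 replicate 1 (-1.78). Of its 100-base stretches 21.9% also occur in other annotated genes, Acot2 foremost. Angptl4, a secreted lipase inhibitor, had 462 and 491 counts in shNr4a3, against 1321 and 1464 counts in shNT (-1.66 ± 0.10). Lpl, the lipase that it inhibits, had 66925 and 66108 counts in shNr4a3, against 44430 and 47553 counts in shNT (0.42 ± 0.05). Lpl was thus higher and the gene of its inhibitor lower, with no overlap between groups for either. Plin2, a lipid droplet coat protein (0.36 ± 0.07), and Pdk4, a pyruvate dehydrogenase kinase (0.36 ± 0.13), also rose, though Pdk4 did not pass without either shNr4a3 library (adjusted p = 0.0934 and 0.128) or shNT replicate 1 (adjusted p = 0.0585). In lipid droplet storage and lipolysis 10 of 24 genes rose and 9 fell (79.2% called): Gpat3, a glycerol phosphate acyltransferase, had 597 and 555 counts in shNr4a3, against 203 and 197 counts in shNT (1.41 ± 0.15; 30.04% of its exon bases overlap 4930458D05Rik on the opposite strand), and Abhd5, the activator of adipose triglyceride lipase, rose by 0.72 (SE 0.08), while Lipe, hormone-sensitive lipase, fell by 1.20 (SE 0.25). In synthesis, elongation and desaturation 7 of 22 rose and 9 fell (72.7% called). Fasn, fatty acid synthase (-0.60 ± 0.06), Srebf1, its transcriptional regulator (-0.85 ± 0.08), and Fads3 (-0.70 ± 0.05) were lower, and Elovl7, an elongase with 10 and 6 counts in shNr4a3 against 116 and 90 counts in shNT, fell by 3.78 (SE 0.49). Scd2, a stearoyl-CoA desaturase (0.54 ± 0.07), and Elovl4, an elongase of very long chains (1.29 ± 0.20), were higher.

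**Figure D5:**
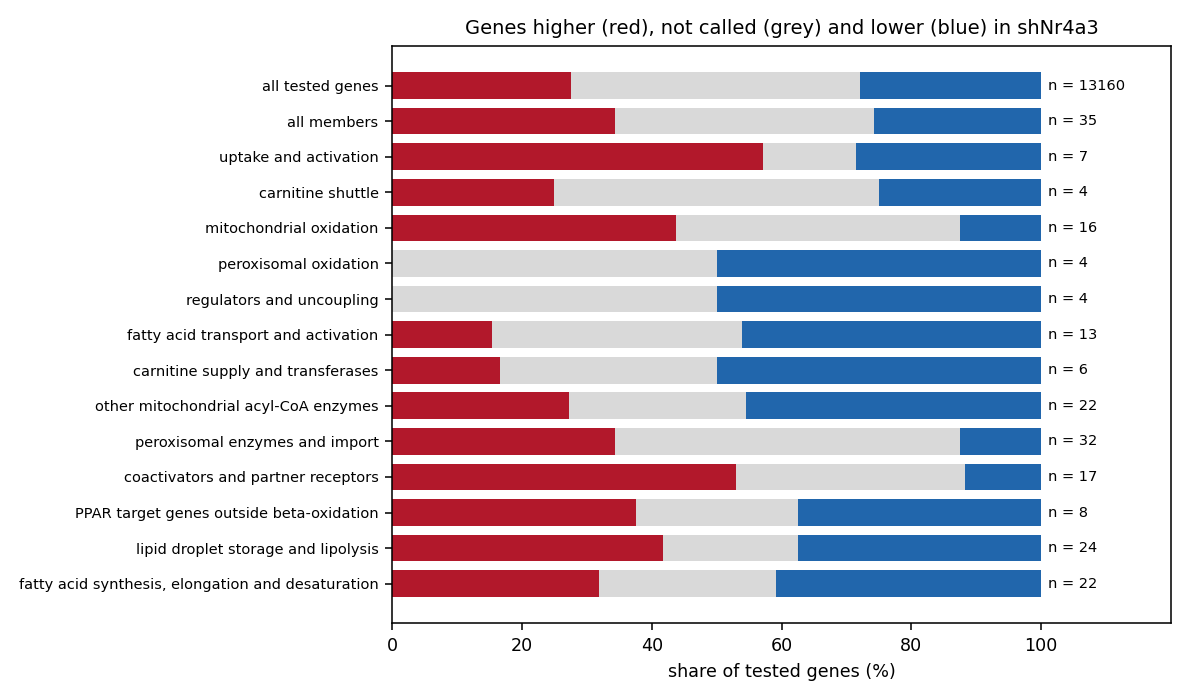
Share of tested genes that were higher (red), not called (grey) or lower (blue) in shNr4a3 at an adjusted p under 0.05, for all genes, the members, each step and each further list, with the number tested at the right. Uptake and mitochondrial steps have more red than blue, and the peroxisomal and regulator members have no red.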

How the data were processed

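RNA was depleted of ribosomal RNA and sequenced as paired ends after stranded library preparation, per the labels' protocols, although the molecule is labelled polyA RNA. The submitters' processing notes name mm10, Trimmomatic 0.36, featureCounts, Subread 1.5.1 and SAMtools, with no role given for each and no strand setting. The authors deposited raw counts per gene, which were the values tested, and FPKM, used only to recover the gene lengths behind it. Their deposited log2 fold change and p-value are the authors' own comparison, and their calls are named where used. The score columns (standard error and test statistic) were computed by the authors in that comparison and were taken as deposited. Of these scores only the standard error of Cpt1a was used, to read the authors' p-values. The test statistic and the mean signal that the authors deposited were not used.

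The test on counts was edgeR's quasi-likelihood F test with robust dispersions (edgeR 4.0.16, R 4.3.3), TMM factors and group as the sole term. The default filterByExpr took out 32 genes. Benjamini-Hochberg adjustment ran over the 13160 tested, and 0.05 was the threshold; an adjusted p is from edgeR unless another tool is named, and n is 2 per group. The SE of a log2 fold change is its size over the square root of F. In 5 simulated tables (13099 genes, 200 of them changed), the test recovered 81.2% of log2 changes of 0.5 and 99.4% of log2 changes of 1, and 5.38% of its calls were false. The changed genes left out those with the lowest levels and were raised as often as lowered. These rates therefore do not cover the scarcest genes, nor data in which 55.5% of all genes were called. The common coefficient of variation between replicates beyond counting error was 6.57%, and each pair differed by more than sampling noise (chi-square per gene 3.99 in shNr4a3 and 11.2 in shNT).

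The members and further gene lists were chosen with earlier results of these data known. Beyond the members, the text draws on up to 4 called genes per list and direction with the smallest p. Positions are from GENCODE M21 (GRCm38), promoter sequences from RefSeq (GRCm38.p6). Alternatives were DESeq2 1.42.0, limma-voom from limma 3.58.1, other scalings and filters, a block for the replicate number, leaving out single libraries, library sizes without the 20 most abundant and 13 mitochondrially encoded genes, and a test beyond a minimum change.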

Additional observations from a re-analysis of the deposited data

How the results depend on the processing

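No member reversed a called direction under any of the 14 alternatives. Setting aside the test against a log2 fold change of 0.5, 13 of the 21 called members (8 higher and 5 lower) passed in all of the other 13; they were Fabp5, Acsl4, Cpt1a, Cpt1c, Acadm, Acadsb, Hadhb, Hadh, Decr1, Acaa2, Etfdh, Acox3 and Ucp2. Counts of called members were 10 higher and 8 lower in DESeq2, and 1 higher and 3 lower against a log2 fold change of 0.5, where 750 genes in all were higher and 1351 lower. Library totals alone gave 4702 higher and 2837 lower genes, so that 62.4% of called genes were higher, against 49.7% with TMM; of called members 68.2% were higher, against 57.1%. Median log2 fold changes under library totals were 0.090 for all members, 0.37 for uptake, 0.15 for the carnitine shuttle, 0.24 for mitochondrial and 0.011 for peroxisomal genes. The filter at 100 counts in 2 libraries, which drops the scarce members, gave 0.020 for all members, 0.30 for uptake, 0.11 for mitochondrial genes and -0.95 for regulators. Leaving out each library in turn gave 8 to 13 members higher and 7 to 10 lower, and medians of -0.033 to 0.052 for all members, 0.17 to 0.26 for uptake, 0.01 to 0.08 for the shuttle, 0.12 to 0.14 for mitochondrial genes, -0.16 to -0.037 for peroxisomal genes and -0.81 to -0.46 for regulators; a lone library is there assumed to vary like the other group. The cause of these shifts was not tested. Same-numbered libraries deviated with a correlation of -0.041. With 2 libraries a group this cannot show whether they shared a culture or batch, which the labels do not state. With the replicate block 12 members were higher and 9 lower, and 3552 genes in all were higher and 3599 lower. With 2 libraries a group and counts under 100 in every library, changes in Cd36 and Ppara were measured poorly. Pparg also had counts under 100 in both shNr4a3 libraries (75 and 98).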

Other observations

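The deposited FPKM values imply a whole number of bases for each gene, but these lengths bear no relation to annotated ones. Over 12706 genes matched to GENCODE M21, Pearson's r between the logarithms of the implied length and of the merged exon length was -0.0042, across genes that are not independent replicates. The implied length exceeded the whole gene from end to end for 1368 genes (10.8%) and was within 10% of the merged exon length for 8.40%. Log mean counts had r = 0.234 with the merged exon length and r = 0.017 with the implied length. Fold changes within a gene do not depend on these lengths, whereas ranking genes by the deposited FPKM does. Among the members the implied length exceeded the gene for 3, Fabp3, Fabp5 and Cpt1c.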
